A study of Mus musculus with 66 samples.

Results

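The anus of mice killed at day 9 of a dextran sulfate sodium (DSS) experiment was compared with the anus of uninjured mice. DSS is a chemical given by mouth that injures the colonic epithelium. The members were the 7 libraries whose labelled section is the anus and whose labelled day is 0 or 9, of 66 tissue libraries in all. The 4 libraries of day 0 (mice 1 to 4) came from mice labelled as having no injury. The 3 libraries of day 9 (mice 11 to 13) came from mice whose course of 3% DSS, started at day 0 and given for 6 days, had ended. Every mouse was C57Bl/6, bought at 6 weeks of age, with no transgene or mutant allele in the labels. A different set of mice was killed at each day, so nothing follows 1 animal through time, and each library is a separate mouse. Anal samples of days 3, 6, 14 and 20 (3 mice each) and the rectum of the same 7 mice were used only for comparison. The values are TPM, a relative abundance of transcripts adjusted for their length, summed here for each gene.

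The anal canal is lined by stratified squamous epithelium, whose basal cells divide and whose upper cells fill with keratins and flake off. At the anorectal junction it meets the single-layered columnar epithelium of the rectum, made of absorptive colonocytes, mucus-secreting goblet cells and scattered hormone-producing cells. The perianal skin carries hair follicles and large sebaceous glands, which build and release lipids, and the striated external sphincter lies beneath. DSS damages the columnar lining first, and neutrophils, the short-lived phagocytes of acute inflammation, then enter the tissue.

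The label was borne out by squamous genes: Krt13, a keratin of non-cornified squamous layers, stood at 8919, 4279, 4756 and 3203 TPM at day 0 and at 5276, 5372 and 8436 TPM at day 9. All 7 libraries also held columnar transcripts, many at day 0 and few at day 9. Between 12406 and 13789 genes reached 1 TPM in a day 0 library and between 12817 and 13338 in a day 9 library. Mitochondrial genes took 6.26% to 12.3% of the TPM at day 0 and 6.72% to 8.65% at day 9. Other tissue varied at day 0: the sum over 15 skeletal muscle genes was 2431, 5875, 26445 and 12214 TPM in mice 1 to 4, and between 10632 and 12513 TPM at day 9. The sum over 10 adipocyte genes ran from 115 to 4109 TPM at day 0, and was highest in mouse 3 for both lists. Read counts were not part of the table, which leaves sequencing depth unknown and allows no counting interval.

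Of 13591 genes tested, 692 (5.09%) were called between day 9 and day 0, 199 higher (1.46%) and 493 lower (3.63%) at day 9. A call is an adjusted p under 0.05 from limma on log2(TPM + 1), with Benjamini-Hochberg adjustment over all genes tested, and every adjusted p below is of this kind. The log2 changes are on that scale, which understates the change of low genes, and ± after a log2 change is its standard error. The median change over all genes tested was 0.065. The 12 largest falls were all genes of the columnar intestinal lining. The 12 largest rises included acute-phase and neutrophil genes, and Elovl3 and Acot5, genes of lipid handling. The groups did not overlap for any of the 692 called genes, nor for 2705 of all the genes tested. The number of calls leaned on single mice: it was 364, 298, 302 and 334 without mouse 2, 11, 12 or 13, and 607 to 827 without mouse 1, 3 or 4. The rises moved more than the falls. Without mouse 2, 11, 12 or 13 there were 58, 60, 50 and 36 higher and 306, 238, 252 and 298 lower. With TMM factors, which match the bulk of genes between libraries, 375 were higher and 805 lower, and with all 19 anal samples in the fit 708 and 843. With no filter on low values the split was 99 and 274, and with TPM rescaled after leaving out mitochondrial and skeletal muscle genes it was 118 and 486. Genes were tested where at least 3 samples reached 1 TPM, which 1 group can meet alone. Calls of genes near or below 1 TPM throughout the other group, such as Slc26a3 and Sycn, are therefore descriptions. So are counts over the tested members of a list.

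The largest fall was that of Lypd8 (ENSMUSG00000013643; GRCm38 chr11:58379043-58390728, plus strand), a protein that colonocytes shed to keep motile bacteria off the epithelium. Lypd8 stood at 5426, 5251, 3082 and 9062 TPM in the 4 uninjured mice. It stood at 9.985, 44.07 and 13.25 TPM in the 3 mice of day 9. The groups lay far apart, with means of 5705 ± 2479 TPM (SD, n = 4) and 22.44 ± 18.81 TPM (SD, n = 3) and a log2 change of -8.11 ± 0.50 (adjusted p = 0.000112). Krt8, a keratin of single-layered epithelia, followed the same pattern. Its values were 580.2, 957.1, 548.6 and 1833 TPM at day 0 and 5.678, 8.563 and 7.127 TPM at day 9, a change of -6.75 ± 0.39 (adjusted p = 0.000112). Its partner Krt18 fell by 4.13 (adjusted p = 0.00346) and was named after its values were seen.

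The fall ran through the whole absorptive list. All 15 tested members of 16 colonocyte genes fell, with a median change of -4.95 against 0.065 over all genes, and the remaining member, Cdx2, did not reach the filter on low values. Among them, Slc26a3, the chloride-bicarbonate exchanger of the colonic surface, went from 52.86, 98.36, 104.4 and 310.8 TPM to 0.1617, 0.2114 and 0.5541 TPM (-6.47 ± 0.50, adjusted p = 0.000203). Car1, a carbonic anhydrase, fell by 7.10 and the water channel gene Aqp8 by 6.20. The regulators of intestinal identity Cdx1 and Hnf4a fell by 4.17 and 4.73. Even the smallest change in the list, -1.61 for the guanylyl cyclase ligand gene Guca2b, was called, though not without mouse 1, 2, 11, 12 or 13. Depending on the mouse left out, 12 to 15 members were called.

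Summed over the list, colonocyte genes stood at 2334, 3520, 2153 and 6726 TPM at day 0 and at 74.69, 69.99 and 56.28 TPM at day 9. For scale, the same sum in the rectum was 21530 to 23637 TPM at day 0 and 9759 to 12343 TPM at day 9. The anal samples of uninjured mice therefore held columnar transcripts at a level below that of the rectum, and mouse 4 held the most. In such bulk samples, fewer cells of a type and less RNA per cell cannot be told apart. How much rectal lining entered each dissected piece cannot be read from the labels.

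Goblet cell genes fell alike. Of 12 listed, 10 were tested and 8 fell, with a median of -5.30. Sycn, which encodes a secretory granule protein, showed the steepest fall (336, 523.4, 254.2 and 928 TPM against 0.3218, 1.4 and 0.5115 TPM; -8.07 ± 0.42, adjusted p = 0.000112). Tff3, a trefoil peptide that protects the mucus layer, fell by 7.13, and Muc2, the gel-forming mucin, fell by 4.69 (adjusted p = 0.0016). With any single mouse left out, 8 were called. Of 5 tested enteroendocrine and tuft cell genes, the hormone genes Pyy (-3.24, adjusted p = 0.00281) and Tac1 (-1.16, adjusted p = 0.0274) fell; Tac1 was no longer called without mouse 2, 11, 12 or 13.

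Further large falls were surface and defence genes of the same lining. Dmbt1, a secreted scavenger receptor, fell by 7.13, the transmembrane mucin genes Muc3 and Muc13 by 7.12 and 6.61, and the mucosal pentraxin Mptx1 by 6.69. Pigr, which carries IgA across the columnar epithelium, went from 163, 174.6, 160 and 600.6 TPM to 0.6776, 3.194 and 1.564 TPM (-6.45 ± 0.50, adjusted p = 0.000203). Gsdmc4, a gasdermin with close paralogs among which reads may be split, fell by 6.53. In these genes mouse 4 had the highest day 0 value. Among 9 tested epithelial defence genes, Duox2 and Duoxa2, the hydrogen peroxide-producing oxidase and its maturation factor, fell with Pigr, by 2.16 and 1.33.

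**Figure D1:**
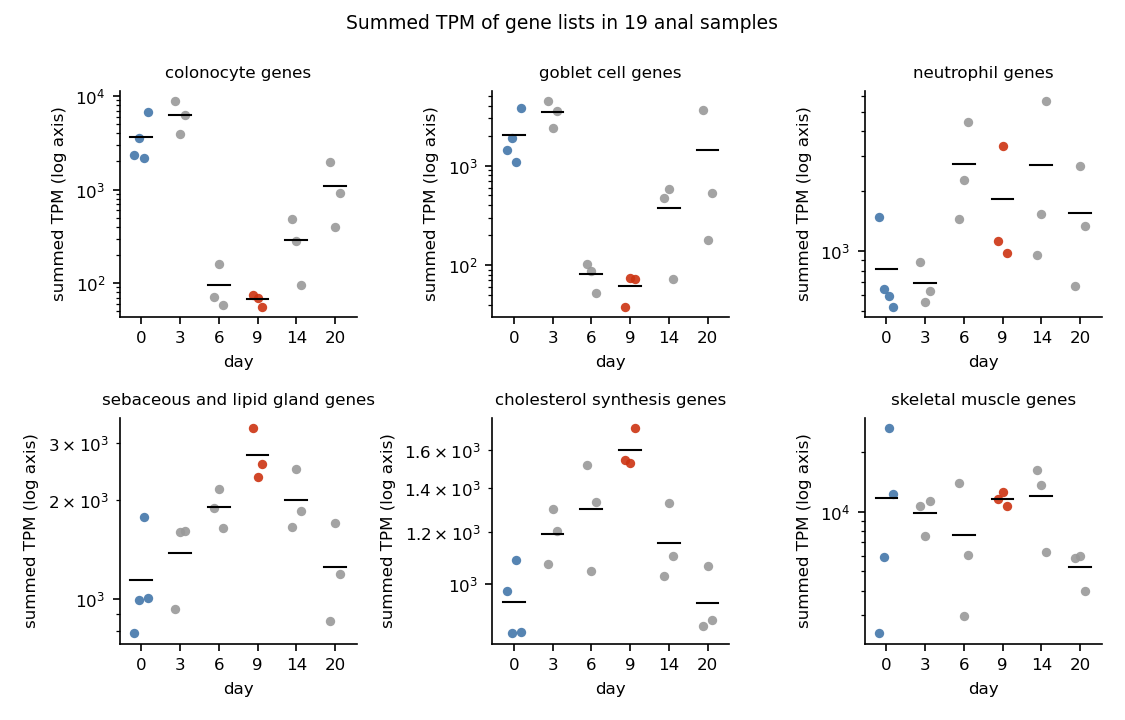
Summed TPM of gene lists in each anal sample by day of the experiment, on a log axis. Points are mice (day 0 blue, day 9 red, other days grey) and bars are arithmetic means. The colonocyte sum lies between 2153 and 6726 TPM at day 0 and between 56.28 and 74.69 TPM at day 9. At both days most of the neutrophil sum is S100a8 and S100a9, which squamous epithelium also makes.

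Set among the other days, the columnar sums were low at days 6 and 9. The colonocyte sum was 8863, 3926 and 6199 TPM at day 3 and already 159.1, 58.45 and 70.35 TPM at day 6. It was 484.5, 282.5 and 96.08 TPM at day 14 and 1994, 397 and 922.7 TPM at day 20. All 3 values of day 20 lay below the lowest of day 0, 2153 TPM. The 3 values of day 9 lay below all 3 of day 14 and overlapped those of day 6. Goblet cell genes separated the days less. Their sum was 1425, 1870, 1075 and 3798 TPM at day 0 and 38.18, 73.42 and 71.7 TPM at day 9. It was 468.8, 575.5 and 71.55 TPM at day 14 and 3627, 177.1 and 524.7 TPM at day 20, so that 1 mouse of day 14 lay within the day 9 range and 1 of day 20 within the day 0 range.

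The genes that fell were mostly genes that the day 0 rectum holds at a higher level than the day 0 anus. Of the 493 genes called lower, 418 (84.8%) had a mean at least 2-fold higher in the rectum and 223 (45.2%) at least 4-fold higher, against 13.7% and 2.49% of all genes tested. Of the 199 called higher, 1 (0.503%) was at least 2-fold higher in the rectum and 0 were at least 4-fold higher. The median level of the genes called lower was 16.8 TPM in the day 0 anus, 1.86 TPM in the day 9 anus and 64.5 TPM in the day 0 rectum. Both sets of percentages use the same day 0 anal samples as the calls, so they describe the called genes and are not a separate test.

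**Figure D2:**
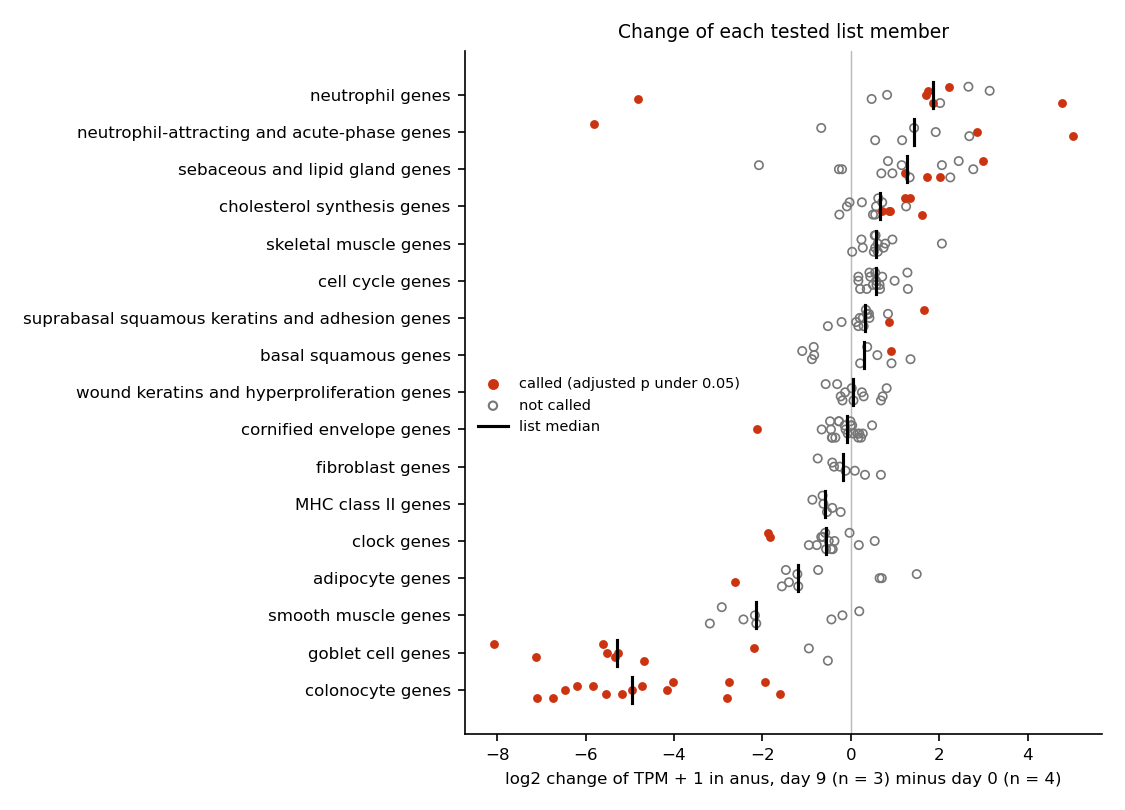
Log2 change from day 0 to day 9 in the anus (x axis) of every tested gene in 17 gene lists. Filled red points were called by limma, open points were not, and black bars mark list medians. Colonocyte and goblet cell genes lie left of 0, and most sebaceous and cholesterol synthesis genes lie right of it.

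Several neutrophil and acute-phase genes rose. Retnlg (ENSMUSG00000022651; GRCm38 chr16:48872621-48874496, plus strand), a resistin-like gene abundant in neutrophils, was at 0.1196, 0.1662, 1.045 and 0.3202 TPM at day 0. At day 9 it was at 20.28, 59.62 and 40.43 TPM, so that the lowest injured mouse stood well above the highest uninjured one (4.78 ± 0.37, adjusted p = 0.000208). Of 11 tested neutrophil genes, 5 rose (median over the list 1.85) and 1 fell. The other 4 that rose were the lectin Clec4d (2.22), the collagenase Mmp8 (1.85), the G-CSF receptor Csf3r (1.75) and the granule protein gene Ngp. Ngp was listed at 0 in all 4 uninjured mice and stood at 1.593, 5.544 and 1.074 TPM at day 9. It was tested only because the 3 day 9 mice reached 1 TPM, so its call is no support for the list. Retnlg, at most 1.045 TPM at day 0, also needed day 9 mice to meet the filter, and its call is no support either.

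The most abundant neutrophil genes were not called. S100a8, a subunit of calprotectin, stood at 523.6, 208.6, 176.4 and 129.9 TPM at day 0 and 773.3, 1764 and 558.9 TPM at day 9 (2.02 ± 0.51, adjusted p = 0.0582). S100a9 stood at 838.4, 320.4, 335 and 214.5 TPM and at 311.1, 1307 and 336.9 TPM, with overlapping groups (0.47, adjusted p = 0.74). Squamous epithelium also makes both proteins. The 1 listed gene that fell, Ly6g, had 114.3, 111.6, 77.8 and 178 TPM at day 0 and 1.164, 10.52 and 1.85 TPM at day 9 (-4.81, adjusted p = 0.0013); it belongs to a family of near-identical copies, and its level is uncertain. The count of 5 was 3 without mouse 2 or mouse 4, 2 without mouse 12 or mouse 13, 3 with no filter on low values and 2 with a filter of at least 5 TPM.

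Saa3, an acute-phase serum amyloid made in inflamed tissue, had the largest rise (5.02 ± 1.10, adjusted p = 0.0355). It was at 0, 0.2213, 26.65 and 9.17 TPM at day 0 and at 71.03, 174.5 and 215.6 TPM at day 9. The groups did not overlap, but the day 0 mice spread widely, and the call was lost without mouse 2, 11, 12 or 13. Lcn2, which withholds iron from bacteria, was tighter: 14.37, 16.39, 40.9 and 18.63 TPM against 201.6, 194 and 94.47 TPM (2.85 ± 0.39, adjusted p = 0.00386). Both belong to a list of 12 neutrophil-attracting and acute-phase genes, of which 9 were tested, 2 rose and 1 fell, with a median of 1.43. Without mouse 2, 12 or 13, and with no filter on low values, 1 rose.

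The gene of that list that fell was Saa1 (711.4, 598.1, 330.2 and 848.2 TPM against 6.783, 25.72 and 4.721 TPM; -5.80, adjusted p = 0.000371), an acute-phase amyloid with a near-identical copy, Saa2. Saa1 and Saa3 thus went opposite ways in the same mice.

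Other large rises fell outside these lists. Serpina3n, a secreted inhibitor of serine proteases, rose from 30.33, 17.57, 24.67 and 24.36 TPM to 158.1, 175.7 and 198.7 TPM (2.84 ± 0.20, adjusted p = 0.000177). Its neighbour Serpina3m rose by 2.18, and reads may be split among the close copies of this cluster. Socs3, an inhibitor of cytokine signalling, rose from 3.363, 4.83, 5.485 and 3.329 TPM to 14.79, 25.47 and 26.43 TPM (2.13 ± 0.26, adjusted p = 0.0024). None of these 3 lost its call when any mouse was left out.

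A pair of the 12 largest rises, Defb3 and Stfa2l1, were listed at 0 at day 0 and were tested only because the 3 day 9 mice reached 1 TPM, so their values are given as a description. Defb3, a beta-defensin of squamous epithelium, was listed at 0 in all 4 uninjured mice and at 13.97, 17.68 and 2.691 TPM at day 9. Its call was lost when all 19 anal samples entered the fit. Stfa2l1, a stefin protease inhibitor gene with near-identical copies, was also listed at 0 at day 0 and stood at 3.564, 18.36 and 6.421 TPM at day 9. In the rectum, Defb3 was listed at 0 throughout days 0 and 9.

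**Figure D3:**
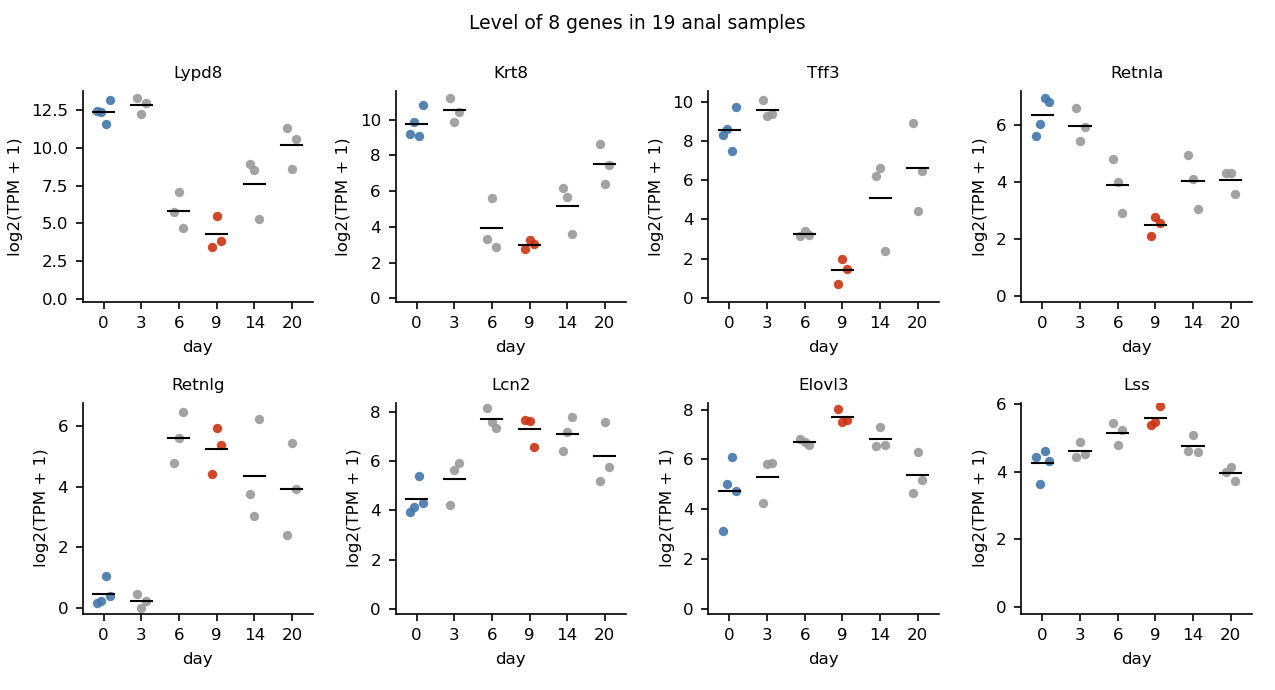
Level of 8 genes in each anal sample by day, as log2(TPM + 1). Points are mice (day 0 blue, day 9 red, other days grey) and bars are means of the log2 values. Lypd8, Krt8, Tff3 and Retnla are lower at day 9 than at day 0, and Retnlg, Lcn2, Elovl3 and Lss are higher.

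Genes of sebaceous lipid synthesis were the other group among the rises. Elovl3, a fatty acid elongase of sebaceous glands (ENSMUSG00000038754; GRCm38 chr19:46131897-46135694, plus strand), was at 7.702, 31.06, 66.99 and 25.71 TPM at day 0. At day 9 it was at 262.4, 180.5 and 192.6 TPM, above every uninjured mouse (2.98 ± 0.57, adjusted p = 0.0205). Of 16 sebaceous and lipid gland genes, all tested, 4 rose and 0 fell. Changes ran from -2.08 to 2.98, 13 were positive, and the median was 1.28. The others that rose were the elongase genes Elovl4 (1.73, adjusted p = 0.0127) and Elovl6 (1.23, adjusted p = 0.00722) and Cidea (2.01, adjusted p = 0.0156), a lipid droplet protein gene.

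The desaturase gene Scd1 was at 28.54, 107.3, 358.5 and 136.1 TPM at day 0 and 686, 403.3 and 540.4 TPM at day 9. Its groups did not overlap but spread widely (2.25 ± 0.69, adjusted p = 0.109). Summed over the list, the values were 783.6, 990.7, 1781 and 1004 TPM at day 0 and 3333, 2351 and 2588 TPM at day 9. Mouse 3 was the highest of the uninjured mice. Without mouse 3, 12 members rose, and without mouse 2, 11 or 13 it was 2, 1 and 2. With no filter on low values 1 rose, and with all 19 anal samples in the fit 11 did. With TPM rescaled after leaving out mitochondrial and skeletal muscle genes, 4 rose. Elovl3 itself was not called without mouse 2, 11, 12 or 13.

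A further 3 of the 12 largest rises were Panx3, a pannexin channel gene (2.57, adjusted p = 0.0481), Acot5, an acyl-CoA thioesterase with close paralogs (2.09, adjusted p = 0.0309), and Clec4d, given above. Panx3 and Acot5 were each no longer called without mouse 2, 4, 11, 12 or 13. Their day 0 values were again lowest in mouse 1 (0.7163 and 0.2822 TPM) and highest in mouse 3 (14.15 and 4.669 TPM). Mouse 1 was also lowest, and mouse 3 highest, in the summed skeletal muscle and adipocyte genes, whose part in the result was not tested.

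Part of the cholesterol synthesis list rose, by smaller amounts. Lss, whose enzyme closes the sterol ring system, was at 20.61, 11.38, 23.73 and 19.08 TPM at day 0 and 40.84, 43.28 and 60.28 TPM at day 9 (1.34 ± 0.26, adjusted p = 0.022). The groups did not overlap, and the call was lost without mouse 11, 12 or 13. Of 16 listed genes, all tested, 6 rose and 0 fell, 13 had a positive change and the median was 0.67. Beside Lss they included Idi1 (1.23, adjusted p = 0.0207), Cyp51 (0.88, adjusted p = 0.0163), Msmo1 (0.86, adjusted p = 0.0449) and Hmgcs1 (0.71, adjusted p = 0.0491). They encode enzymes from the early steps of the pathway to the processing of the sterol ring.

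Most changes in this list were small beside the spread of few mice. The summed level of the list was 975.2, 841, 1088 and 845.7 TPM at day 0 and 1545, 1531 and 1729 TPM at day 9, with no overlap. The count of 6 was 1, 2, 1 and 0 without mouse 2, 11, 12 or 13, and 1 with no filter on low values.

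The promoters of these genes are shown because part of the list rose. Transcription of the pathway is controlled by SREBP factors, which bind sterol regulatory elements beside boxes of the sequence CCAAT. RefSeq promoter windows on GRCm38.p6 (250 bases before to 50 after the start site, 300 in all) were at hand for 10 of the 16 genes. CCAAT, on either strand, occurred in 10 of the 10, against 41.1% of all 27025 genes with a window. The sterol element TCACNCCAC (N is any base, either strand) occurred in 1 of the 10, Hmgcs1, against 1.44% of all. The 150 bases before the start of Hmgcs1 (chr13:119690201-119690350, plus strand) are printed with both matches in capitals; ATTGG is CCAAT read on the other strand.
Hmgcs1: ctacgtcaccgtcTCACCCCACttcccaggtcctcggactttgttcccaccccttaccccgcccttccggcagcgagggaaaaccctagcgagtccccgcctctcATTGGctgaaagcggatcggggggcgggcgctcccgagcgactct

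For the 4 other genes of the list that rose and have a window, and for 5 that were not called, 29 bases around the CCAAT match nearest before the start site are given on the gene's own strand, with the match in capitals. Idi1, Lss, Cyp51 and Msmo1 rose; Mvd, Nsdhl, Dhcr7, Sc5d and Insig1 were not called.
Idi1 (chr13:8885580-8885608, plus strand): gtccaaggtgccATTGGctggcgaccgac
Lss (chr10:76531531-76531559, plus strand): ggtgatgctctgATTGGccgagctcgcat
Cyp51 (chr5:4104710-4104738, minus strand): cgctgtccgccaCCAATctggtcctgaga
Msmo1 (chr8:64733617-64733645, minus strand): gagtggggcggaCCAATtacgacaggcga
Mvd (chr8:122443433-122443461, minus strand): ccggccagcgggCCAATcatatggcagcg
Nsdhl (chrX:72918489-72918517, plus strand): aagactagcctcATTGGgcaaaatcatgc
Dhcr7 (chr7:143830153-143830181, plus strand): aatccacttccgATTGGtcgtctgtgacc
Sc5d (chr9:42264308-42264336, minus strand): cgccggctgctgATTGGccggctgcctgc
Insig1 (chr5:28071184-28071212, plus strand): cgccctcctcccATTGGctccggcggcct

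The CCAAT match was thus present in windows of genes that rose and of genes that did not. Mvd was at 0.71 (adjusted p = 0.0627) and Nsdhl at 0.62 (adjusted p = 0.103), whereas Dhcr7, Sc5d and Insig1 were at -0.03, -0.26 and -0.09. These last 5 were chosen for having a window, after their values were seen. In the other 6 gene sets searched the match was found in 11 of 14 clock genes, 6 of 11 sebaceous and lipid gland genes, 5 of 13 colonocyte genes, 2 of 6 goblet cell genes, 2 of 9 neutrophil-attracting and acute-phase genes and 3 of 9 of the 12 largest rises that have a window. The box CACGTG, read by clock factors, was in 5 of the 14 clock gene windows, against 8.09% of all, and not in those of Nr1d1 or Dbp. A match in letters does not show that a factor binds there.

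Some squamous genes were called, and their counts are descriptions. Over all genes tested, 1.46% were called higher and 3.63% lower. Of 10 basal squamous genes, 1 rose: Trp63, the regulator of basal cell identity, from 18.13, 21.53, 28.82 and 20.49 TPM to 39.78, 38.62 and 48.59 TPM (0.91, adjusted p = 0.0327). Its call was lost without mouse 2, 4, 11, 12 or 13, with no filter on low values, and with TPM rescaled without mitochondrial and skeletal muscle genes; with TMM factors 2 basal genes rose and 1 fell. Of 14 suprabasal keratin and adhesion genes, 2 rose, both encoding desmosomal cadherins. Dsg3 went from 18.22, 16.34, 25.03 and 23.88 TPM to 53.78, 58.5 and 93.49 TPM (1.65 ± 0.24, adjusted p = 0.00553), and Dsc3 rose by 0.86 (adjusted p = 0.0481). Dsg3 kept its call without any 1 mouse, and Dsc3 kept it only without mouse 3 and lost it with no filter and with the rescaled TPM.

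The abundant keratins of those lists were not called. Krt14, the main basal keratin, was at 1208, 2599, 2427 and 2609 TPM and at 3583, 6611 and 6610 TPM, without overlap (1.35, adjusted p = 0.0548). Krt13 and Krt4 had changes of 0.34 and 0.37 (adjusted p = 0.671 and 0.517). Of 22 cornified envelope genes 0 rose and 1 fell, the transglutaminase gene Tgm3 (-2.12, adjusted p = 0.0167), whose day 0 level was higher in the rectum (582.5 TPM) than in the anus (116.5 TPM) and which was not called without mouse 2, 11 or 13. Of 12 tested wound keratin and hyperproliferation genes 0 were called, with a median of 0.04, and Krt6a was at 0.68 (adjusted p = 0.178). Of 14 tested hair follicle genes 0 were called, and the day 0 mice differed widely: Krt71, a keratin of the inner root sheath, ran from 0.0392 to 277.5 TPM.

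Counts for dividing cells and for other cell types stand beside the same shares, 1.46% higher and 3.63% lower over all genes tested. Of 16 cell cycle genes 16 had a positive change (median 0.56) and 0 were called; their sum was 105.5, 170.3, 168.3 and 225.7 TPM at day 0 and 127.2, 313.2 and 416.9 TPM at day 9, and the groups overlapped. Of 9 tested crypt and Wnt target genes, 1 rose, the adhesion receptor gene Cd44 (1.31 ± 0.22, adjusted p = 0.0119). Of 6 tested mast cell genes 6 had a positive change and the tryptase gene Tpsb2 rose (1.46, adjusted p = 0.0393), but not without mouse 1, 2, 11, 12 or 13. Of 10 tested interferon-stimulated genes 1 fell, Oas1a (-1.93, adjusted p = 0.0416; not called without mouse 1, 2, 4, 11 or 13), and Gbp2 differed among the day 9 mice themselves (6.104, 97.45 and 14.5 TPM). The 12 macrophage genes, 3 tested T cell genes and 6 tested MHC class II genes had 0 calls.

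Collagen and matrix (12 tested), fibroblast (8), endothelial (8), smooth muscle (8), skeletal muscle (13), nerve (3) and melanocyte (4) genes had 0 calls. All 13 skeletal muscle genes had a positive change with a median of 0.56, and the wide day 0 range of their sum is given above. Of the 8 smooth muscle genes 7 had a negative change, with a median of -2.15. Their sum was 174.1, 1294, 1200 and 518.1 TPM at day 0 and 255.8, 196.5 and 334.4 TPM at day 9, with mouse 1 below all 3 mice of day 9. Without mouse 1, 5 of them fell, and with TMM factors 2 did. These values lie beside the fall of the columnar genes, and their part in it was not tested. Among 9 tested matrix protease and inhibitor genes 1 rose, the inhibitor Timp1 (1.61, adjusted p = 0.0422), and among 10 adipocyte genes 1 fell, Pck1 (-2.63, adjusted p = 0.0385). Of 2 tested B and plasma cell genes, Jchain, which links IgA dimers, fell by 2.99 (adjusted p = 0.0472). Each of these last 3 lost its call without at least 5 of the 7 mice taken singly. Of 9 glucocorticoid-responsive genes 1 rose, the metallothionein Mt2 (638.7, 883.6, 867.4 and 842.1 TPM against 1989, 1778 and 1540 TPM; 1.13, adjusted p = 0.0073).

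A pair of output genes of the circadian clock fell. Nr1d1, which encodes the repressor REV-ERB alpha, stood at 36.29, 41.35, 41.79 and 59.27 TPM at day 0 and at 7.504, 13.01 and 14.22 TPM at day 9 (-1.88 ± 0.25, adjusted p = 0.00373). Dbp, a clock-driven transcription factor, stood at 37.68, 50.78, 51.06 and 65.49 TPM and at 6.178, 19.53 and 18.89 TPM (-1.84 ± 0.37, adjusted p = 0.0257). Neither pair of groups overlapped. Of 15 clock genes 2 fell and 0 rose, 13 had a negative change and the median was -0.56. The labels give no hour of death, so the time of day cannot be told apart from the day of the experiment; without mouse 2 or mouse 4, and with no filter on low values, 1 fell.

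Day 9 was also set against day 6, the last day of DSS. Of 13269 genes tested, 32 (0.241%) were called, 10 higher (0.0754%) and 22 lower (0.166%) at day 9, and 1695 had an unadjusted p under 0.05. The 5 largest falls were a pair of matrix proteases, a cytokine receptor, a chemokine and a cytokine. Mmp10, a stromelysin of wound-edge epithelium, was at 168.7, 127.4 and 85.46 TPM at day 6 and 0.1202, 0.2315 and 1.314 TPM at day 9 (-6.39 ± 0.34, adjusted p = 0.000695). Mmp10 met the filter through its day 6 values, so its call is a description. The collagenase gene Mmp13 fell by 6.30, the IL-33 receptor gene Il1rl1 by 5.72, the neutrophil chemokine gene Cxcl1 by 4.47 and the cytokine gene Il11 by 4.21. These 5 were low at day 0 as well, with day 0 means between 0.1324 and 0.708 TPM. The day 6 mice alone can meet the filter, so the calls of all 5 are descriptions.

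Of 12 neutrophil-attracting and acute-phase genes, 12 had a negative change from day 6 to day 9 and 5 fell (median -2.02). The count of 5 was 0 with no filter on low values, 2 without mouse 8 and 3 without mouse 9, 10 or 13. Of 12 matrix protease and inhibitor genes 5 fell (median -1.88), and 3 did with no filter or without mouse 13. The counts of both lists are descriptions too, because the day 6 mice alone can meet the filter. Of 13 wound keratin and hyperproliferation genes and 12 neutrophil genes 0 were called. The sum over the neutrophil-attracting and acute-phase list was 2059 to 2624 TPM at day 6 and 315.9 to 519.1 TPM at day 9. That lay below the 574.4 to 930.4 TPM of day 0, of which Saa1 was the largest part. Saa3 went from 1985, 1676 and 1504 TPM at day 6 to 71.03, 174.5 and 215.6 TPM at day 9 (-3.61 ± 0.38, adjusted p = 0.0122), with day 9 still above day 0. Lcn2 and Retnlg, by contrast, had changes of -0.41 and -0.38 (adjusted p = 0.662 and 0.796). The day 9 mice are shared with the comparison against day 0, so these values stand side by side and are not 2 independent results.

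The largest rise from day 6 to day 9 was that of Ltf, the iron-binding lactoferrin (52.12, 25.98 and 51.34 TPM against 459.1, 269.9 and 814.1 TPM; 3.47, adjusted p = 0.0294). At day 0 it was at 547.9, 257, 322.6 and 338.4 TPM, so that day 9 overlapped the uninjured level. The hair keratin-associated gene Krtap6-3 rose by 2.86, Ppp1r14d, a phosphatase inhibitor gene, by 2.65, Chac1, a glutathione-degrading enzyme gene, by 1.53 and Fam3b, a secreted factor gene, by 1.21. Their adjusted p-values were 0.0342, 0.00169, 0.0384 and 0.035. Of the 5 rises, that of Ppp1r14d was called without any 1 mouse; Ltf was not called without mouse 8, 9, 11 or 13, Krtap6-3 without mouse 8, 9 or 10, and Chac1 and Fam3b without any of the 6. Of 10 tested goblet cell genes and 6 tested colonocyte genes 0 were called between these days. The count of 32 was 9, 18, 13 and 15 without mouse 8, 9, 11 or 13 and 78 without mouse 10.

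The rectum of the same 7 mice showed a different response. The change from day 0 to day 9 differed between anus and rectum for 2936 of 14733 genes tested (19.9%), of which 642 (4.36%) were higher and 2294 (15.6%) lower in the anus. TMM scaling moved the median difference over all genes from -0.115 to 0.092. With it, 2006 were higher and 1815 lower, so that the higher share of calls went from 21.9% to 52.5%, and the split by direction rests on the scaling. The list counts that follow were within 1 of these with TMM scaling unless stated.

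For most columnar genes the log2 change was lower in the anus. Lypd8 had a mean of 27152 ± 1415 TPM (SD, n = 4) in the day 0 rectum and 14480 ± 1408 TPM (SD, n = 3) at day 9, a change of -0.91 against -8.11 in the anus (difference -7.20 ± 0.56, adjusted p = 2.49e-06). Muc13 and Dmbt1 had rectal changes of 0.18 and -0.06 beside -6.61 and -7.13 in the anus. The difference was lower in the anus for 13 of 16 colonocyte genes, 9 of 12 goblet cell genes and 6 of 8 tested enteroendocrine and tuft cell genes. The rectal sum of the enteroendocrine and tuft list was higher at day 9 (1150 to 1478 TPM) than at day 0 (242.9 to 302.5 TPM). A rectal rise can therefore take part in the differences of that list. Slc26a3 was much lower at day 9 in both sections, and differed less between them (a rectal change of -4.17, difference -2.30, adjusted p = 0.02).

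Most inflammation genes had a lower signed log2 change in the anus than in the rectum. For Ly6g and Saa1, which fell in the anus, the difference includes that fall. S100a8 went from a mean of 0.4973 ± 0.6178 TPM (SD, n = 4) to 5655 ± 1244 TPM (SD, n = 3) in the rectum (difference -9.93 ± 0.66, adjusted p = 1.05e-06), and S100a9 had a difference of -10.59. Hp, a haemoglobin-binding acute-phase gene, Clca4b, a chloride channel regulator gene, and Wfdc21, a secreted protease inhibitor-like gene, completed the 5 lowest differences (-8.53, -7.98 and -7.58). The difference was lower in the anus for 12 of 12 neutrophil genes, 11 of 12 neutrophil-attracting and acute-phase genes, 10 of 12 macrophage genes, 10 of 12 interferon-stimulated genes and 6 of 6 tested MHC class II genes. The interferon count was 4 to 12 depending on the mouse left out. In the rectum, the neutrophil list summed to 606.2 to 737.6 TPM at day 0 and 14886 to 16873 TPM at day 9. In the anus it summed to 527.8 to 1486 TPM and 982.2 to 3380 TPM, with overlapping ranges. Most of the anal sum was S100a8 and S100a9, which squamous epithelium also makes, so it does not measure neutrophils alone. In the day 0 rectum S100a8 was near 0, so the similar day 0 sums differ in makeup and are not like baselines.

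Duox2 and Duoxa2 went opposite ways in the 2 sections. In the rectum their changes were 3.16 and 4.34, whereas both fell in the anus (differences -5.32 and -5.67, adjusted p = 2.24e-06 and 1.05e-06). Saa1 had a rectal change of 1.56 beside its anal fall (difference -7.36, adjusted p = 4.85e-06).

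Part of the lipid gene lists had a positive difference between anus and rectum, in which lower rectal values at day 9 take part. The rectal sum of the sebaceous and lipid gland genes was 816.8 to 954.6 TPM at day 0 and 510.2 to 563.3 TPM at day 9. Of 16 sebaceous and lipid gland genes 10 had a higher difference and 0 a lower one (median 1.88), and the count of 10 was 5 to 13 depending on the mouse left out. Elovl3 was listed at 0 in all 7 rectal samples. Of 16 cholesterol synthesis genes 5 were higher (8 with TMM scaling), among them Hmgcs1, whose rectal mean was 88.64 ± 9.152 TPM (SD, n = 4) at day 0 and 67.85 ± 19.41 TPM (SD, n = 3) at day 9 (a rectal change of -0.42 beside 0.71 in the anus, difference 1.12, adjusted p = 0.00764). The 5 highest differences were those of Cyp2f2 (4.56) and Ugt1a1 (4.32), genes of foreign-compound metabolism, Cers4 (3.94), a ceramide synthase gene, Slc37a2 (3.76), a sugar phosphate transporter gene, and Eno3 (3.60), the muscle enolase gene. Of these, Cers4 also rose in the anus itself (2.06, adjusted p = 0.0315; not called without mouse 2, 11, 12 or 13), while the rectal changes of Cyp2f2, Ugt1a1, Slc37a2 and Eno3 were -4.05, -3.46, -4.45 and -3.55.

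Of the clock genes, 6 of 15 had a higher difference in the anus (8 with TMM scaling, and 3 with no filter on low values). Dbp had a mean of 93.58 ± 7.826 TPM (SD, n = 4) in the day 0 rectum and 5.38 ± 2.244 TPM (SD, n = 3) at day 9, a larger change than in the anus (difference 2.11, adjusted p = 0.00613). For Nr1d1 the changes were -2.02 and -1.88 (difference 0.14, adjusted p = 0.845).

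**Figure D4:**
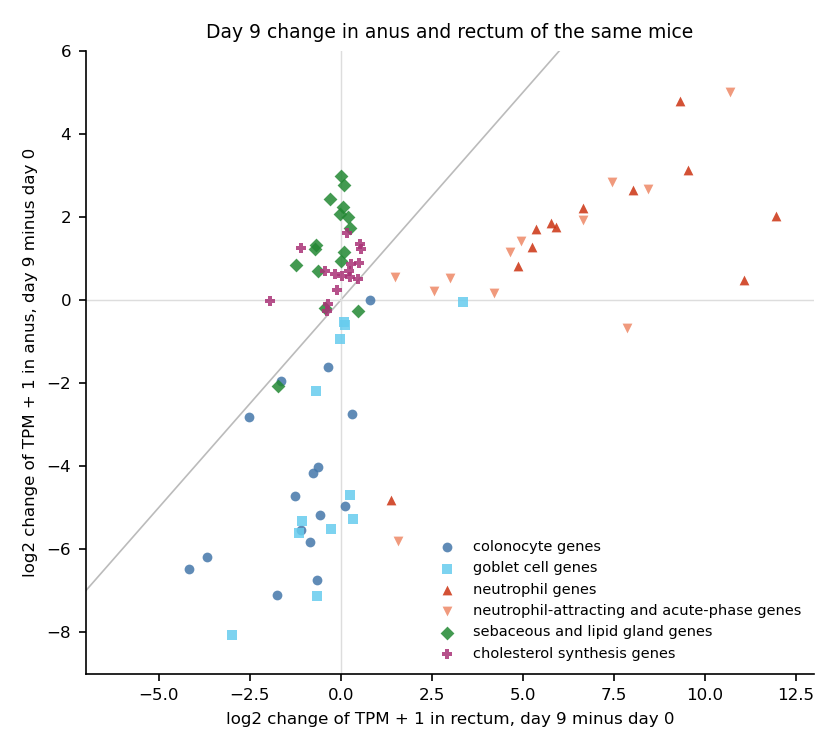
Log2 change from day 0 to day 9 of the members of 6 gene lists in the rectum (x axis) and the anus (y axis) of the same mice. Each point is a gene, and the grey line marks equal change. Neutrophil genes lie below the line at positive rectal changes, goblet and colonocyte genes lie below it at negative anal changes, and most sebaceous genes lie above it.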

How the data were processed

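The authors deposited 1 table of TPM signal per Ensembl mouse transcript, with 1 column per sample; kallisto, CASAVA and the mm10 build are named in the submitters' processing notes, without versions. Per the labels' protocols, mucosal surfaces were cut from full-thickness tissue and stranded mRNA libraries were read from 1 end. Of 126860 rows, 37344 held no values, and 1318 repeats of a transcript were dropped, before which the deposited signal columns summed to 1027330.2 to 1062208.5 and after which each summed to 1000000 within 0.2. TPM was then summed over 88198 transcripts into 30452 genes; 1284 transcripts without a gene identifier (1.09% to 2.83% of anal TPM) were left out. The design had named TPM as the unit, and the test for TPM was kept.

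limma 3.58.1 (R 4.3.3) was fitted to log2(TPM + 1), with a pseudocount of 1 and a prior following mean expression, over genes with at least 1 TPM in at least 3 samples. Calls are Benjamini-Hochberg adjusted p under 0.05, two-sided. The comparison of anus and rectum is an interaction of section and day over 14 samples. Anal and rectal samples of a mouse come from 1 animal; across genes, their deviations from the group means correlated at r between -0.002 and 0.237 in 7 pairs (mean 0.107, 4 over 0.1). A second fit of that interaction took the mouse as replicate block. Alternatives were a pseudocount of 0.1, no filter, a filter of 5 TPM, TMM factors (a trimmed mean of log ratios, used only to scale the TPM columns), TPM rescaled without mitochondrial and skeletal muscle genes, all samples of the section in the fit, and each mouse left out. The script was tested on simulated data.

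The text names, for day 9 against day 0, the 12 largest rises and 12 largest falls among called genes with a mean of at least 8 TPM, no overlap and a proper symbol, 5 each way for the other comparisons, and in each of 39 lists (452 entries, 450 in the table) the called members and up to 2 abundant uncalled ones. The members and lists were chosen with earlier results of these data known. Some list members that the rule would name are not reported here. Genes outside the rule are said to be named after their values were seen.

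Symbols came from the deposited table and coordinates from GENCODE on GRCm38, which mm10 denotes. Promoter windows of 300 bases came from RefSeq. Both strands were searched for 10 motifs in 7 gene sets: CCAAT, TCACNCCAC, TCACCCCA (in 1.77% of all windows, overlapping the previous one), TTATGNAA (3.99%), TTACGTAA (0.126%), GTTATGTAA (0.244%, holding TTATGNAA), CAAAGTCCA (0.555%), TTCCNGGAA (1.35%), TTCNNNGAA (9.55%, holding the previous one) and CACGTG. The motifs were chosen after list results were known. The rest was done in Python 3.11.15 (pandas 2.3.3, numpy 2.4.6; plots with matplotlib 3.10.9).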

Additional observations from a re-analysis of the deposited data

Results flagged for a closer look

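In 5 of 63 day 0 values tested (the named genes and the list sums), 1 mouse lay apart from the other 3 by Dixon's criterion, which chance meets in about 1 of 20 groups. Mouse 4 stood apart in Dmbt1 (1227 TPM), Muc13 (691.4 TPM) and Pigr (600.6 TPM), the highest of the 4 each time. Mouse 1 stood apart at the low end in the sum of basal squamous genes (2401 TPM) and of endothelial genes (32.47 TPM). Of the 24 genes named for the largest changes in the anus, 23 responded differently in the rectum of the same mice by the limma interaction of section and day with Benjamini-Hochberg adjustment, the exception being Mptx1 (-1.95, adjusted p = 0.0545). Over all genes tested the share was 19.9%. The 24 were chosen for their anal changes, which the interaction contains, so this count is a description and no separate evidence. Each number that follows is the log2 change in the anus minus that in the rectum.

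Among the genes that rose in the anus, those of inflammation had negative differences: Saa3 -5.66, Retnlg -4.52, Stfa2l1 -4.62, Lcn2 -4.62, Serpina3n -2.75, Clec4d -4.44, Serpina3m -2.40 and Socs3 -4.64. The other 4 had positive ones: Defb3 3.34, Elovl3 2.98, Panx3 2.57 and Acot5 2.06. These 4 were at or near 0 in all 7 rectal samples (at most 0.05408 TPM), so their differences restate the anal changes. Among the genes that fell, the differences were -7.20 for Lypd8, -5.08 for Sycn, -6.48 for Tff3, -7.07 for Dmbt1, -5.78 for Muc3, -5.34 for Car1, -6.10 for Krt8, -6.79 for Muc13, -3.53 for Gsdmc4, -2.30 for Slc26a3 and -5.30 for Pigr.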

How the results depend on the processing

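The count of 692 genes called between day 9 and day 0 was 373 with no filter on low values, 1180 with TMM factors, 1551 with all 19 anal samples in the fit, and 298 to 827 when 1 mouse was left out. The unfiltered fit tests more genes (21414 against 13591), the fit of all 19 has more samples behind its error and leaving out a mouse has fewer; the cause under TMM was not tested. The count of 32 between day 9 and day 6 was 6 with no filter, 181 with all 19 anal samples, and 9 to 78 with 1 mouse left out. The count of 2936 for anus against rectum was 1990 to 2868 with 1 mouse left out and 2794 (584 higher, 2210 lower) with the mouse as a replicate block, 2596 of them shared. Of the 24 genes named for the largest changes against day 0, 24 kept their call with TMM factors and without mouse 1 or 3, 23 with all 19 anal samples, 22 without mouse 4, 21 with a pseudocount of 0.1 and 20 with no filter or without mouse 2; without mouse 11, 12 or 13 it was 18 of the 22 still tested. None of these 24 genes, nor of the 10 named for each other comparison, reversed its direction under the settings run. The remaining named genes are not covered by that check. Depth is unknown, so the precision of values near 0 TPM cannot be given.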

Other observations

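The genes and gene sets given here were chosen after their values were seen, so their calls are descriptions; over all genes tested 1.46% were called higher and 3.63% lower. Retnla, a resistin-like gene of type 2 immunity, went from 47.72, 65.59, 124.5 and 112.2 TPM to 3.332, 5.799 and 5.002 TPM (-3.88 ± 0.34, adjusted p = 0.000364 by limma), and did so without overlap. The chemokine genes Ccl17 and Ccl24 fell by 1.90 and 1.34, and the eosinophil ribonuclease gene Ear2 by 1.47; Ccl24 was not called without mouse 11 or 12. Of the 12 macrophage and monocyte genes 10 had a positive change (median 0.44) and 0 were called. Unlike most genes called lower, Retnla, Ccl17, Ccl24 and Ear2 were not at least 2-fold higher in the day 0 rectum than in the day 0 anus; 75 of the 493 shared that property. Of those 75, 34 were at least 2-fold lower in the rectum. They include genes of connective tissue such as Clec3b (222.3, 228.5, 216.4 and 225.7 TPM against 73.71, 64.35 and 96 TPM; -1.52, adjusted p = 0.00105), Serpinf1 (-1.12) and the growth factor-binding gene Igfbp6 (-1.20), although the fibroblast list as a whole had 0 calls.

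Of 27 tested genes in the Nop, Utp, Rrp and Noc name series, many of which serve nucleolar ribosome assembly, 7 rose and 26 had a positive change (median 0.57), and the count was 1 to 7 depending on the mouse left out. Nop56 went from 74.81, 62.15, 79.18 and 65.47 TPM to 130.6, 165.4 and 154.2 TPM (1.08 ± 0.16, adjusted p = 0.00545). The serine pathway genes Psat1, Psph and Phgdh rose by 1.27, 1.13 and 0.86, with 1 to 3 of the 3 called depending on the mouse left out. The amino acid transporter genes Slc7a11 and Slc7a5 rose by 1.49 and 1.39 and the asparagine synthetase gene Asns by 1.16; none of these last 3 was called without mouse 2, 12 or 13.

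All 4 tested Naip genes, sensors of bacterial proteins and near-identical copies whose reads may be split, fell (median -2.41), with 2 to 4 called depending on the mouse left out. Their partner Nlrc4 fell by 1.91, the DNA sensor gene Aim2 by 1.98, Nlrp6 by 2.84 and the pore-forming Gsdmd by 2.35; Nlrc4 was not called without mouse 11 or 12, nor Aim2 without mouse 2, 11 or 13. In the rectum the changes of Nlrc4, Aim2 and Gsdmd were -0.03, 0.01 and 0.57 and that of Nlrp6 was -2.54.

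Of 4 tested Hox genes of group 13, 3 fell: Hoxb13 (36.46, 40.57, 23.82 and 83.7 TPM against 1.219, 1.421 and 3.645 TPM; -3.86, adjusted p = 0.00115), Hoxd13 (-2.11) and Hoxa13 (-1.59), with 1 to 3 called depending on the mouse left out. Hoxc13, which is on the hair follicle list, was at -0.16 and was not called. The antiviral genes Ifitm1, Ifitm2 and Ifitm3, which have close copies, rose by 1.97, 0.66 and 1.22, less than in the rectum (differences -3.35, -2.09 and -2.19). Muc4, a transmembrane mucin, fell to 8.427, 3.305 and 7.213 TPM from 19.69, 23.8, 20.79 and 17.89 TPM (-1.63, adjusted p = 0.0121) and had means of 92.7 and 47.26 TPM at days 14 and 20.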
